A study of Mus musculus with 16 samples.

Results

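Newly made RNA of mouse embryonic stem cells carrying AID-Tada3 was compared, gene by gene, with that of wild-type (WT) cells. Of 30278 mouse genes in the table, 15099 passed the count filter (edgeR's filterByExpr, set to 10 counts) and form the comparison. The series holds 16 libraries of E14 cells, a mouse embryonic stem cell line, and 4 of them enter here. The AID-Tada3 group holds 2 clones, in which Tada3 is joined to an auxin-inducible degron (AID), a tag that lets auxin send a protein to degradation where the plant receptor Tir1 is present. The WT group holds a plain WT line (replicate 1) and a WT line that overexpresses Tir1 and the biotin ligase BirA (replicate 2). The labels do not say from which line the clones were made. Every line, WT included, had auxin (IAA) for 24 h, and grew in serum with leukaemia inhibitory factor, 3 µM of the GSK3 inhibitor CHIR99021 and 1 µM of the MEK inhibitor PD0325901. RNA made in the last 15 min was labelled with 4-thiouridine (4sU), pulled down and sequenced, beside labelled RNA of Drosophila S2 cells as spike-in. The labels name clones and lines but no repeat cultures, so the p-values measure the spread between these 4 libraries.

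Tada3 is an adaptor of the acetyltransferase module that sits in both SAGA and ATAC, coactivator complexes recruited to promoters and enhancers. In that module Kat2a (GCN5) or Kat2b (PCAF) acetylates histone tails, Tada2b anchors the enzyme in SAGA and Tada2a in ATAC, Tada3 joins enzyme and adaptor, and Sgf29 reads methylated histone H3. SAGA also carries a deubiquitinase for histone H2B.

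The newly made RNA of AID-Tada3 cells was close to that of WT cells. With libraries scaled by the trimmed mean of M-values (TMM), which takes most genes as unchanged, 5 genes fell and 0 rose at an adjusted p under 0.05 in edgeR's quasi-likelihood test (0.0331% of genes). The genes that fell were Arpc4, Eif2s3y, Pkhd1, Etv1 and Rpl39l. Without adjustment, 578 genes were higher and 630 lower at p under 0.05 (8% of genes), and DESeq2 called 8 higher and 24 lower of the 11879 genes it adjusted (0.269%). All 5 genes were also called by DESeq2, with spike-in scaling and in the authors' deposited table, which lists 2 genes higher and 16 lower at an adjusted p under 0.05. In edgeR 0 genes passed when either clone was left out, against 74 higher and 86 lower (1.03%) without the plain WT line and 1040 higher and 1000 lower (12.9%) without the Tir1/BirA line. The prior degrees of freedom were infinite for 95.56% and 94.99% of genes in these last fits, so that their p-values rest on a spread shared across genes, and for 0% in the fits without a clone, where their medians were 6.61 and 7.10.

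Tada3 itself had 12.2 and 10.5 CPM in AID-Tada3 clones 1 and 2 (CPM are read counts relative to the TMM-scaled library size), against 31.3 and 23.9 CPM in the plain and the Tir1/BirA WT line. Both clones lay below both WT lines. The difference was -1.28 on the log2 scale (SE 0.168) and missed the threshold in edgeR (adjusted p = 0.0577), while DESeq2 put it at an adjusted p of 1.53e-05 and edgeR's fit of all 14 4sU libraries at 0.0140. The degron acts on the protein, so the RNA level does not measure how much Tada3 protein was left.

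The other members of the shared module gave no call, beside 0.0331% of all genes called. Tada2b had 9.92 and 9.79 CPM in AID-Tada3 cells, against 12.5 and 11.2 CPM in WT cells (log2 difference -0.27, edgeR adjusted p = 0.704). Kat2a had 14.1 and 17.2 CPM, against 14.7 and 13.9 CPM in WT cells, and Kat2b had 343 and 331 CPM, against 349 and 348 CPM in WT cells. Kat2a overlapped between the groups and Kat2b was lower in both clones by a log2 difference of -0.05. The median difference was 0.07 over 18 SAGA core and deubiquitinase subunits and -0.07 over 8 ATAC-specific subunits, with 0 called in either list, beside -0.0046 over all genes tested. The member with the smallest p among the SAGA genes was Eny2, a deubiquitinase subunit, with 63.6 and 67.2 CPM in AID-Tada3 cells, against 47.6 and 59.4 CPM in WT cells (0.29, edgeR adjusted p = 0.565). Over 23 tested genes of other acetyltransferases and their readers the median was -0.0046, and 0 were called.

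Arpc4 encodes a subunit of the Arp2/3 complex, which starts branched actin filaments. It had 20.5 and 23.2 CPM in AID-Tada3 clones, against 54.7 and 51.9 CPM in WT lines. The clones did not overlap the WT lines and the WT lines were close to each other. The log2 difference was -1.28 (SE 0.112, edgeR adjusted p = 0.00962), and it was -1.25 against the Tir1/BirA line alone and -1.31 against the plain line alone. Of the 10 genes of the complex tested, Arpc4 was the single one called. The others ranged from Arpc5l, with 16.3 and 18.0 CPM in AID-Tada3 cells against 18.5 and 20.5 CPM in WT cells, to Actr3, with 221 and 217 CPM in AID-Tada3 cells against 177 and 208 CPM in WT cells (log2 differences -0.18 and 0.19).

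Arpc4 lies head to head with Tada3. In the deposited coordinates (mm10), Tada3 spans chr6:113366025-113377883 on the minus strand and Arpc4 spans chr6:113378115-113390448 on the plus strand, so that their starts are 232 bases apart. Ttll3, a tubulin glycylase, starts at 113389260 on the plus strand and its span shares 1189 bases with the end of Arpc4. It had 11.3 and 8.99 CPM in AID-Tada3 cells, against 24.3 and 18.5 CPM in WT cells. The clones were again below both WT lines, with a log2 difference of -1.08 (SE 0.185) that was not called by edgeR (adjusted p = 0.178) and was called by DESeq2 (adjusted p = 0.0055) and in edgeR's fit of all 14 4sU libraries (adjusted p = 0.0108). Arpc4 and Ttll3 lie on the same strand, so reads from the shared 1189 bases cannot be told apart.

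None of the genes further out was called. Camk1, a calcium-dependent kinase gene whose start lies at -33.9 kb from that of Tada3, had 0.737 and 0.856 CPM in AID-Tada3 cells, against 1.32 and 0.890 CPM in WT cells. It rests on 11 to 21 counts per library, and its log2 difference was -0.47 (SE 0.434). Ogg1, a DNA glycosylase that removes oxidised guanine, had 6.23 and 7.52 CPM in AID-Tada3 cells, against 6.81 and 7.12 CPM in WT cells, and Brpf1, a scaffold of the MOZ acetyltransferase complex, had 35.2 and 38.4 CPM in AID-Tada3 cells, against 33.8 and 40.3 CPM in WT cells. Both overlapped between groups, with log2 differences of -0.016 and -0.0087. To the right of Ttll3, Rpusd3 had 1.81 and 1.96 CPM in AID-Tada3 cells, against 2.08 and 1.99 CPM in WT cells. It rests on 27 to 33 counts per library, with a log2 difference of -0.11 (SE 0.311). At such counts the lack of a call for Camk1 and Rpusd3 does not show that they were unchanged.

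**Figure D1:**
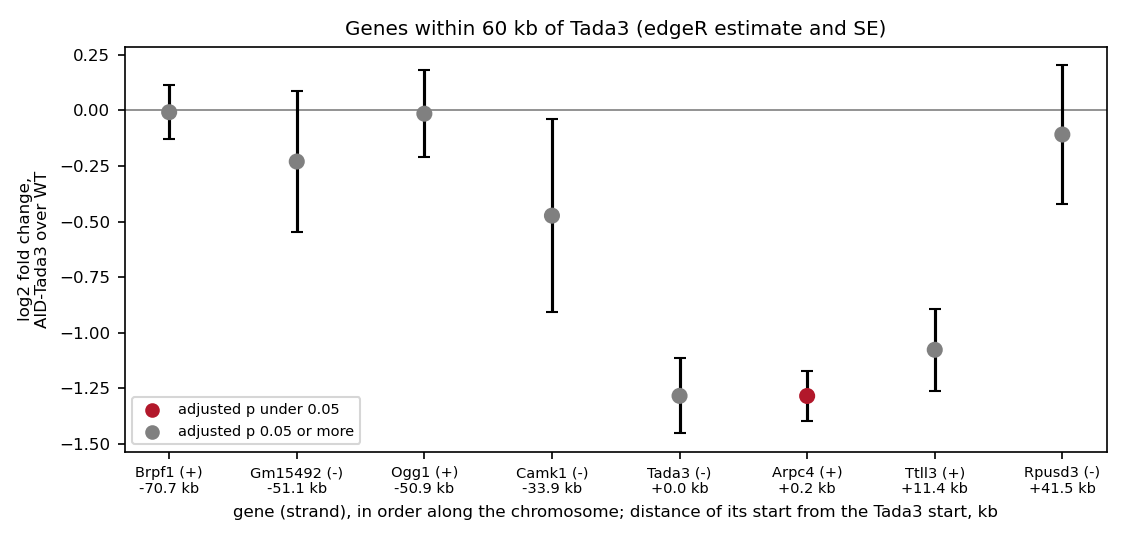
Log2 difference of AID-Tada3 over WT newly made RNA (points, with bars of 1 SE, red where called by edgeR) for the genes within 60 kb of the Tada3 span, in order along the chromosome and evenly spaced, with the distance of each start from the Tada3 start in kb. Tada3, Arpc4 and Ttll3 lie between -1.28 and -1.08, and the 5 other genes between -0.47 and -0.01.

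The promoters of Tada3 and Arpc4 are shown because the 2 genes are transcribed apart from the same stretch of DNA. The sequences are 5′ to 3′ on the strand of each gene, from 250 bases before to 50 bases after the RefSeq start (GRCm38.p6), at chr6:113377789-113378088 on the minus strand for Tada3 and chr6:113377863-113378162 on the plus strand for Arpc4. Capitals mark CCGGAAG on either strand (CTTCCGG on the other), a core that ETS factors bind.
Tada3: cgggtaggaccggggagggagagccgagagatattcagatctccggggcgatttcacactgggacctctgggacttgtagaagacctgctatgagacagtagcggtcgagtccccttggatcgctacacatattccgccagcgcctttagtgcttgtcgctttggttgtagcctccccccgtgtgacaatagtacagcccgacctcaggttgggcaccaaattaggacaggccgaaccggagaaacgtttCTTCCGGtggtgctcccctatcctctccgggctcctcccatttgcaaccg
Arpc4: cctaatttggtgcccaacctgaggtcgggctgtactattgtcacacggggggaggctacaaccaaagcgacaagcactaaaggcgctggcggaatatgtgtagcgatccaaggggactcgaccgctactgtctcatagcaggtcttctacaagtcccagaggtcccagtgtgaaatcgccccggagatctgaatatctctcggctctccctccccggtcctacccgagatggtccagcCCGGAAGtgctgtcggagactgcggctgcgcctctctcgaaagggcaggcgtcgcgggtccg
The windows share 226 bases, identical on opposite strands. Each holds 1 match to CCGGAAG, and the matches are different copies, since each lies past the shared stretch. The match lies at bases 251 to 257 of the Tada3 window and at bases 239 to 245 of the Arpc4 window. CCGGAAG stands in 8.86% of the 32851 promoter windows of the RefSeq table, CCAAT in 37.4%, GGGCGG in 35.7%, TATAAA in 13.6% and CACGTG in 7.15%. Neither window holds any of the last 4. GC content was 57.7% in the Tada3 window and 59.7% in the Arpc4 window, beside a median of 52.7% over all windows. The ratio of observed to expected CpG (C followed by G) was 0.762 and 0.824, beside a median of 0.384. CCGGAAG itself holds a CpG, and its share among windows of like CpG ratio was not counted.

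Eif2s3y is the Y-linked gene for the gamma subunit of initiation factor eIF2, which carries the initiator tRNA to the ribosome. It had 31.8 and 29.5 CPM in AID-Tada3 clones, against 65.0 and 77.5 CPM in WT lines. The groups did not overlap and the log2 difference was -1.22 (SE 0.114, edgeR adjusted p = 0.00962). Eif2s3x, its X-linked homologue, had 68.6 and 70.2 CPM in AID-Tada3 cells, against 75.8 and 75.8 CPM in WT cells (-0.13, edgeR adjusted p = 0.746). Among 10 tested genes of eIF2, its exchange factor eIF2B and Eif5, Eif2s3y was the single one called.

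All 7 tested genes of a chosen Y-linked list lay below both WT lines in both clones, beside 20.3% of all genes tested, and 1 of them passed edgeR's threshold. Of these, Kdm5d, Uba1y and Usp9y had only 4 to 33 counts per library. The Y chromosome holds 10 tested genes, whose median was -0.82. Against the Tir1/BirA line alone that median was -0.53, beside -0.97 for the list. Uty, a homologue of the histone demethylase gene Kdm6a, had 300 and 210 CPM in AID-Tada3 cells, against 438 and 498 CPM in WT cells (-0.88, edgeR adjusted p = 0.453). Ddx3y, an RNA helicase gene, had 66.4 and 48.9 CPM in AID-Tada3 cells, against 101 and 118 CPM in WT cells (-0.92, edgeR adjusted p = 0.303). DESeq2 called both, each at an adjusted p of 3.15e-05. Clone 2 was lower than clone 1 in both genes and in Eif2s3y, and the median over the 7 genes was -0.92. Their 7 X-linked homologues had a median of 0.06, with 0 called.

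The Y-linked level also differed between libraries of other lines. Summed over the 7 genes and set against the mean of each project's own WT lines, it was 61.3% and 44.3% in the AID-Tada3 clones, against 93.7% and 106% in their WT lines. It was 93.0% and 104% in AID-Yeats2 clones, 0.170% and 0.158% in Supt7l-/- clones and 41.2% and 99.9% in AID-Zzz3 clones. The WT lines of the other 2 projects ranged from 77.4% to 123%. A single AID-Zzz3 clone was thus below both AID-Tada3 values, and both Supt7l-/- clones held almost no Y-linked RNA. In a bulk library fewer cells with the chromosome and less RNA per cell cannot be told apart. With the spread of all 14 4sU libraries in the fit, the difference of Eif2s3y was no longer called (log2 difference -1.22, edgeR adjusted p = 0.494).

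**Figure D2:**
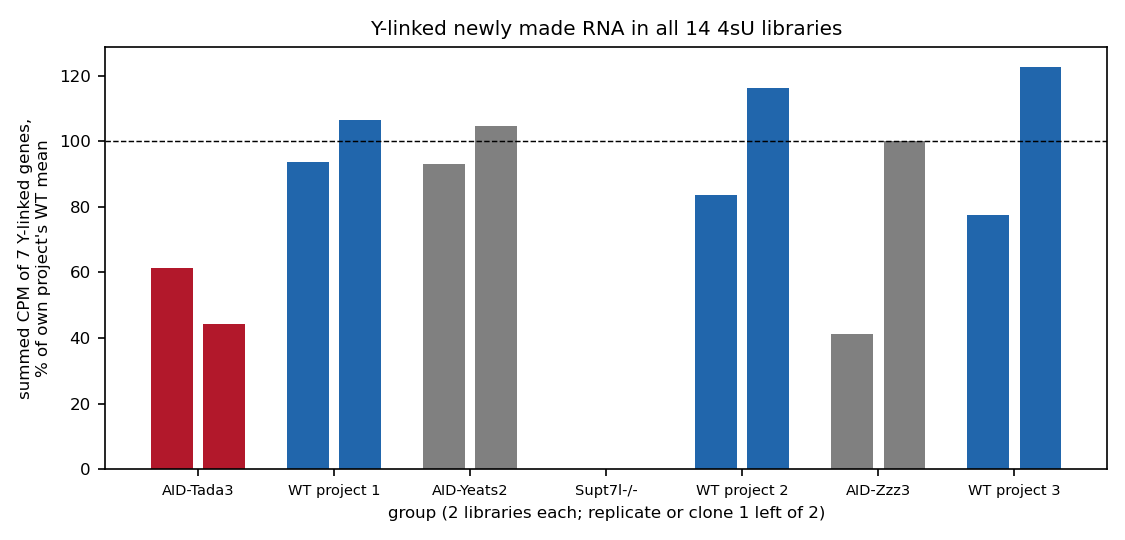
Summed CPM of the 7 Y-linked genes in each of the 14 4sU libraries (bars), as a percentage of the mean of the project's own WT lines (dashed line), with mutants left of their WT lines. The AID-Tada3 clones (red) stand at 61.3% and 44.3%, against 93.7% and 106% in their WT lines, and the Supt7l-/- bars are too low to see.

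Pkhd1 encodes fibrocystin, a membrane protein of the primary cilium that is mutated in recessive polycystic kidney disease. It had 13.9 and 12.6 CPM in AID-Tada3 clones, against 40.9 and 31.1 CPM in WT lines. The clones were close together and below both WT lines (-1.44, SE 0.157, edgeR adjusted p = 0.0246). Of 23 tested genes of the primary cilium and polycystic disease, Pkhd1 was the single one called, and the median was 0.03. Pkd2, which encodes polycystin-2, had 111 and 104 CPM in AID-Tada3 cells, against 87.4 and 105 CPM in WT cells, and overlapped between groups. Across the other lines Pkhd1 varied widely, with 142 and 138 CPM in AID-Yeats2 and 47.8 and 54.5 CPM in Supt7l-/- clones, against 92.0 and 62.6 CPM in their WT lines. In AID-Zzz3 clones it was 215 and 53.5 CPM, against 48.9 and 51.3 CPM in their WT lines. With all 14 libraries in the fit its AID-Tada3 difference was no longer called (-1.44, edgeR adjusted p = 0.516).

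Etv1 encodes an ETS factor of the PEA3 group, which responds to growth factor signals through ERK. It had 75.4 and 75.0 CPM in AID-Tada3 clones, against 128 and 121 CPM in WT lines. The log2 difference was -0.73 (SE 0.0841, edgeR adjusted p = 0.0295), with no overlap. Neither of its PEA3-group relatives was called. Etv5 had 516 and 473 CPM in AID-Tada3 cells, against 450 and 506 CPM in WT cells, and Etv4 had 7.57 and 7.65 CPM in AID-Tada3 cells, against 6.87 and 11.7 CPM in WT cells. Both overlapped between groups, and Etv1 was the single gene called of 16 tested ETS and ERK pathway targets (median 0.0016).

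Rpl39l encodes a paralogue of the ribosomal protein Rpl39 that is enriched in testis. It had 20.9 and 22.6 CPM in AID-Tada3 clones, against 40.2 and 41.1 CPM in WT lines. Replicates of each group were close together and the groups did not overlap (-0.90, SE 0.111, edgeR adjusted p = 0.0421). Rpl39l resembles Rpl39 in sequence, so its counts are uncertain where reads could map to either gene. Of 7 tested ribosomal protein paralogues it was the single one called. Rpl22l1, for example, had 30.4 and 23.7 CPM in AID-Tada3 cells, against 22.6 and 32.3 CPM in WT cells, with overlap. The Rpl39l promoter is shown because it holds 2 matches to CCGGAAG (capitals), at bases 105 to 111 and 159 to 165 of chr16:10169978-10170277 (plus strand, RefSeq, GRCm38.p6).
Rpl39l: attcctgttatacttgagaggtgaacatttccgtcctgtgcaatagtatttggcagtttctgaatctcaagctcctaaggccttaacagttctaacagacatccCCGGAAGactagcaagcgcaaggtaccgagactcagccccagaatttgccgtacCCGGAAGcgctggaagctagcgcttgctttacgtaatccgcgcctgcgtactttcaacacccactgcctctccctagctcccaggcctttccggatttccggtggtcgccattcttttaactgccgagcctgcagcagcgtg
The ratio of observed to expected CpG was 0.836 in the Rpl39l window, beside a median of 0.384 over all windows. The promoter windows of Pkhd1 and Etv1 held none of the 5 motifs searched. The RefSeq table holds 2 windows for Etv1, of which the one nearer to the deposited gene start was searched, and its start lies 702 bases from that one. That of Eif2s3y held 2 matches to GGGCGG and 1 to TATAAA.

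**Figure D3:**
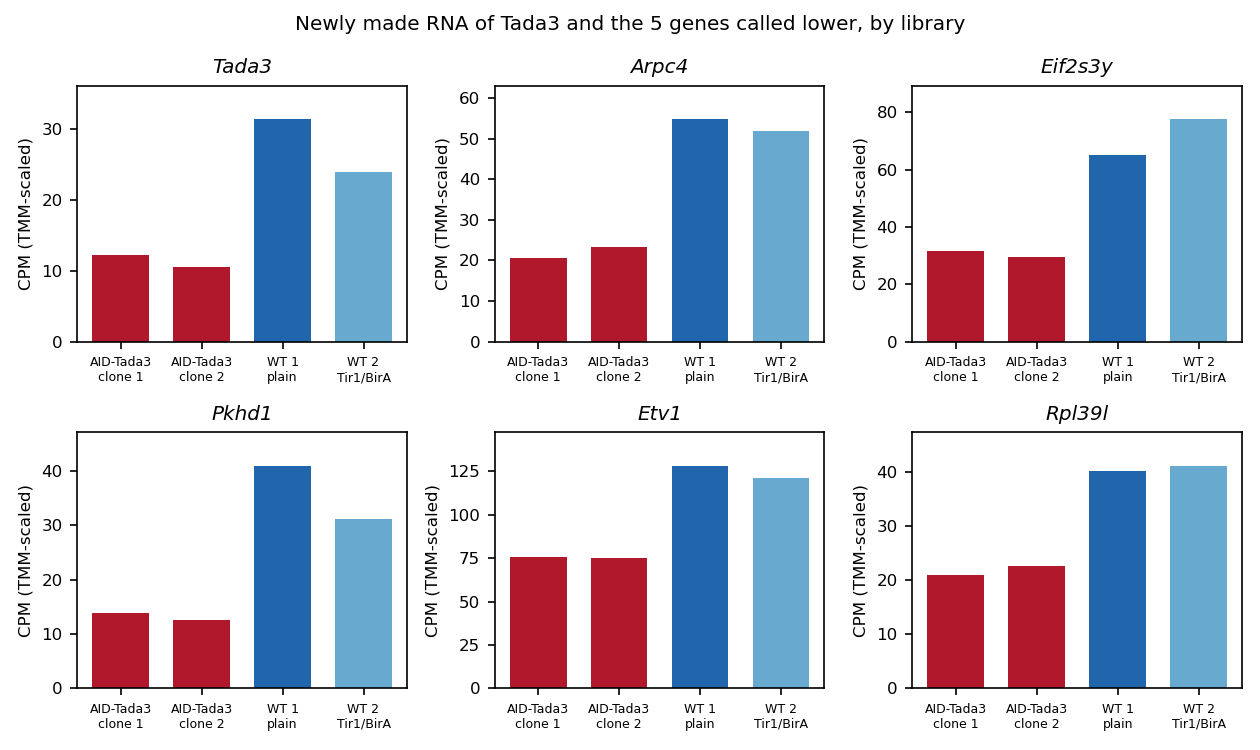
TMM-scaled CPM in each of the 4 libraries (bars, 1 per library, each panel with its own scale from 0) for Tada3 and the 5 genes called lower, with the AID-Tada3 clones left of the WT lines. In each gene both clones lie below both WT lines, with Etv1 at 75.4 and 75.0 CPM in the clones and 128 and 121 CPM in the WT lines.

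The WT lines were less alike than the clones. Across the 15099 genes, the Tir1/BirA line differed from the plain line by over 1 on the log2 scale in 214 genes, and the clones differed from each other in 8. Against the Tir1/BirA line the clones differed by that much in 18 and 20 genes, and against the plain line in 312 and 310. Of 1206 genes with p under 0.05 in edgeR and both clones beyond both WT lines, the Tir1/BirA line was the nearer to the clones in 951 (78.9%). What part Tir1 and BirA have in this was not tested.

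Against each WT line alone, 44 genes were higher (0.291%) and 55 lower (0.364%) at an adjusted p under 0.05 in both fits, and 12 were called in opposite directions. The lone WT library is there assumed to vary like the clones, and the shared spread of these fits is given above. These 99 genes include the 5 called above and 30 of the 32 called by DESeq2. The size of the change often depended on the line. Phactr1, a regulator of actin and of protein phosphatase, had 145 and 127 CPM in AID-Tada3 clones, against 18.3 CPM in the plain and 78.5 CPM in the Tir1/BirA WT line. Its log2 difference was 2.90 against the plain line and 0.79 against the Tir1/BirA line. Total RNA of the same WT lines differed in the same direction, with 8.79 CPM in the plain and 26.4 CPM in the Tir1/BirA line. Cyp2b23, a cytochrome P450 gene, had 3.42 and 3.18 CPM in AID-Tada3 clones, against 42.7 CPM in the plain and 8.83 CPM in the Tir1/BirA line, with 32.9 and 9.77 CPM in their total RNA. Neither gene passed with both WT lines in the fit (edgeR adjusted p = 0.776 for Phactr1 and 0.657 for Cyp2b23).

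**Figure D4:**
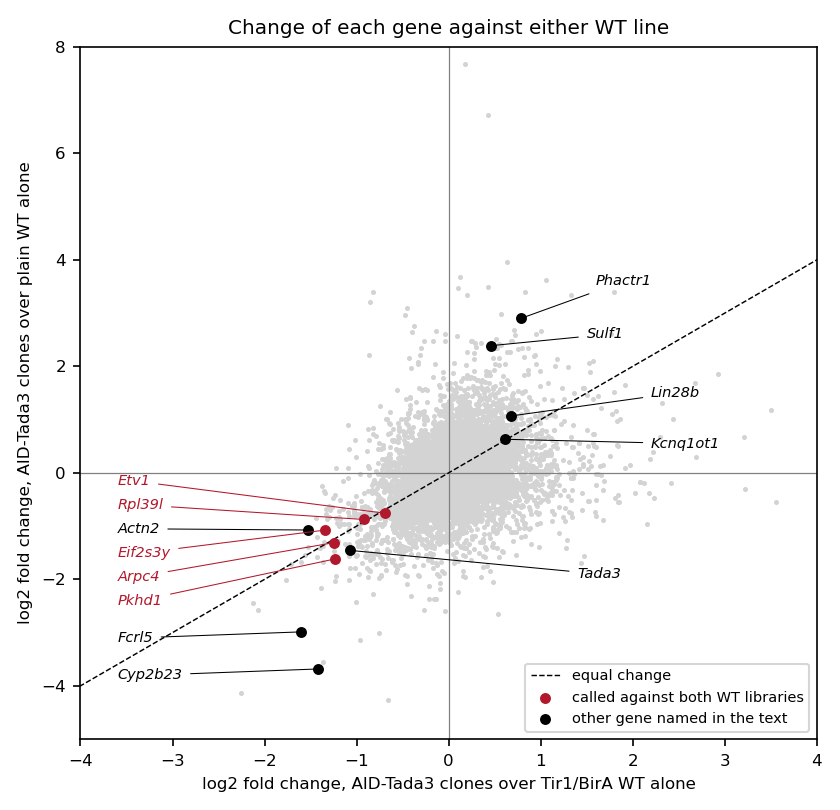
Log2 difference of the AID-Tada3 clones against the Tir1/BirA WT line alone (horizontal axis) and against the plain WT line alone (vertical axis), 1 grey point per gene, with the dashed line at equal change. Red marks labelled genes called by edgeR with both WT lines in the fit, and black marks other labelled genes. Arpc4 (red, -1.31 on the vertical and -1.25 on the horizontal axis) lies near the dashed line. Phactr1 (black, 2.90 and 0.79) and Cyp2b23 (black) lie off it.

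Other genes, called by DESeq2 and not by edgeR in the 4-library fit, were picked after their values were seen. Kcnq1ot1 and Patj had nearly the same difference against either WT line. Kcnq1ot1, an imprinted non-coding RNA made antisense to Kcnq1, had 577 and 569 CPM in AID-Tada3 clones, against 372 and 374 CPM in WT lines. The groups stood well apart and the replicates nearly coincided (0.62, SE 0.0869, edgeR adjusted p = 0.0757, DESeq2 adjusted p = 8.51e-06). Kcnq1 had 7.57 and 4.89 CPM in AID-Tada3 cells, against 9.83 and 5.96 CPM in WT cells, and overlapped between groups. Patj, a scaffold of epithelial polarity, had 95.1 and 91.6 CPM in AID-Tada3 cells, against 63.0 and 63.7 CPM in WT cells (0.56, edgeR adjusted p = 0.113). Lin28b, which blocks maturation of let-7 microRNAs, had 28.3 and 29.7 CPM in AID-Tada3 cells, against 13.9 and 18.1 CPM in WT cells (0.86, edgeR adjusted p = 0.178), and its difference was 0.68 against the Tir1/BirA line and 1.07 against the plain line. The fit of all 14 4sU libraries called none of Kcnq1ot1, Patj and Lin28b (edgeR adjusted p = 0.549, 0.199 and 0.219). With spike-in scaling edgeR called Kcnq1ot1 (adjusted p = 0.00444), and not Patj (adjusted p = 0.299) or Lin28b (adjusted p = 0.0887).

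On the lower side, Platr16, a non-coding RNA associated with pluripotency, had 369 and 370 CPM in AID-Tada3 cells, against 646 and 533 CPM in WT cells (-0.67, edgeR adjusted p = 0.129), and the fit of all 14 4sU libraries called it (edgeR adjusted p = 0.0132). Cyp7b1, an oxysterol hydroxylase, had 54.3 and 51.1 CPM in AID-Tada3 cells, against 117 and 90.1 CPM in WT cells (-0.97, edgeR adjusted p = 0.0608). Actn2, the alpha-actinin of muscle Z-discs, had 4.49 and 4.83 CPM in AID-Tada3 cells, against 9.89 and 13.5 CPM in WT cells (-1.32, edgeR adjusted p = 0.129). In all 3 both clones were below both WT lines, beside 20.3% of all genes. Since the 3 were picked after their values were seen, this lack of overlap is not a result. Against the Tir1/BirA line alone and the plain line alone the differences were -0.53 and -0.80 for Platr16, -0.77 and -1.14 for Cyp7b1 and -1.53 and -1.07 for Actn2.

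The largest differences among protein-coding genes called with spike-in scaling were also not called with TMM. Efhc2, an EF-hand gene on the X chromosome, had 77.2 and 47.1 CPM in AID-Tada3 clones, against 17.3 and 8.15 CPM in WT lines (2.28, SE 0.536, edgeR adjusted p = 0.563). The other 5 largest rises were Tmem28, Cdx2, Atp10a, Tox and Fhit, with log2 differences of 1.09 to 1.36. Fcrl5, an Fc receptor homologue of B cells, had 5.63 and 5.20 CPM in AID-Tada3 clones, against 43.2 CPM in the plain and 16.5 CPM in the Tir1/BirA line (-2.47, SE 0.627, edgeR adjusted p = 0.563). The other 5 largest falls were Pramel7, Miip, Gpnmb, Atp8b1 and Nsg2, with log2 differences of -2.45 to -1.53 and under 1 CPM in the AID-Tada3 clones. These 12 were picked with both clones beyond both WT lines, so their lack of overlap comes from the rule and is not a result. The WT lines differed by more than the clones in all of them but Efhc2 on the CPM scale.

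No member of a gene list beyond the genes named above was called by edgeR, which called 0.0331% of all genes. Mitosis genes were lower by sign in 24 of 24 tested, beside 7695 of the 15099 genes, and 20 lay below both WT lines in both clones, beside 20.3% of all genes. Their median was -0.20, and it was -0.20 against the Tir1/BirA line alone and -0.21 against the plain line alone. Cdk1, the kinase that drives entry into mitosis, had 117 and 133 CPM in AID-Tada3 cells, against 158 and 162 CPM in WT cells (-0.36, edgeR adjusted p = 0.454). Ttk, a spindle checkpoint kinase, had 69.6 and 78.3 CPM in AID-Tada3 cells, against 96.0 and 89.9 CPM in WT cells (-0.33, edgeR adjusted p = 0.466). With spike-in scaling the median was -0.36, beside -0.16 over all genes. In that fit 2 members were called lower, beside 224 of all 15099 genes.

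Cholesterol synthesis genes were higher by sign in 19 of 24 members, with a median of 0.19, which was 0.23 against the Tir1/BirA line alone and 0.16 against the plain line alone. Of these, 12 lay above both WT lines in both clones, beside 19.3% of all genes. With spike-in scaling the list's median was 0.02, beside -0.16 over all genes.

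Other lists depended on the WT line. Wnt targets had a median of 0.53, which was 0.96 against the plain line alone and 0.19 against the Tir1/BirA line alone. Axin2, a feedback inhibitor of the Wnt pathway, had 139 and 139 CPM in AID-Tada3 cells, against 63.4 CPM in the plain and 122 CPM in the Tir1/BirA line (0.58, edgeR adjusted p = 0.79). The 7 tested mitochondrially encoded protein genes had a median of 0.53, which was 0.96 against the plain line and 0.22 against the Tir1/BirA line. The share of mitochondrial counts was 0.869% and 1.03% in AID-Tada3 clones, against 0.496% in the plain and 0.810% in the Tir1/BirA line. Aryl hydrocarbon receptor targets, looked at because auxin is an indole, had a median of 0.39, which was 0.65 against the plain line and 0.12 against the Tir1/BirA line. Cyp1a1, the best known of them, had 139 and 143 CPM in AID-Tada3 cells, against 65.6 CPM in the plain and 113 CPM in the Tir1/BirA line (0.65, edgeR adjusted p = 0.671). For Axin2 and Cyp1a1 the clones lay above both lines, and nearer to the Tir1/BirA line.

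No marker of cell identity was called by edgeR, in a test that called 0.0331% of all genes. Embryonic stem cell markers summed to 2001 and 1924 CPM in AID-Tada3 clones, against 1923 and 2001 CPM in WT lines. Naive pluripotency genes had a median of 0.09 over 20 tested, formative and primed genes 0.08 over 13, Nodal pathway genes 0.09 over 16, and p53 targets -0.08 over 27. Primitive endoderm markers summed to 688 and 651 CPM in AID-Tada3 clones, against 528 and 606 CPM in WT lines, and mesoderm markers to 13.8 and 12.1 CPM, against 9.52 and 9.79 CPM in WT lines. Trophectoderm markers summed to 159 and 136 CPM in AID-Tada3 clones, against 150 and 140 CPM in WT lines. Markers of the 2-cell-like state were at about 1 CPM in sum in every library, with Zscan4f at 0, and 0 were tested. Neural markers summed to 25.3 and 24.0 CPM in AID-Tada3 clones, against 15.8 and 22.3 CPM in WT lines. Map2 alone had 14.9 and 15.2 CPM in the clones, against 8.89 and 12.1 CPM in WT lines. The 3 of 10 neural markers tested had a median of 0.52, and 1 of them was lower by sign (-0.07). The other 2 were higher at an unadjusted p under 0.05 in edgeR, beside 3.83% of all genes. In these sums primitive endoderm, mesoderm and neural markers were higher in both clones than in both WT lines, and their part in the differences above was not tested. By gene, 5 of the 9 primitive endoderm markers tested were higher and 4 lower by sign (median 0.12). Of the 10 mesoderm markers 3 were tested. Of these, Kdr alone had 8.84 and 8.63 CPM in AID-Tada3 clones, against 5.61 and 6.64 CPM in WT lines.

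**Figure D5:**
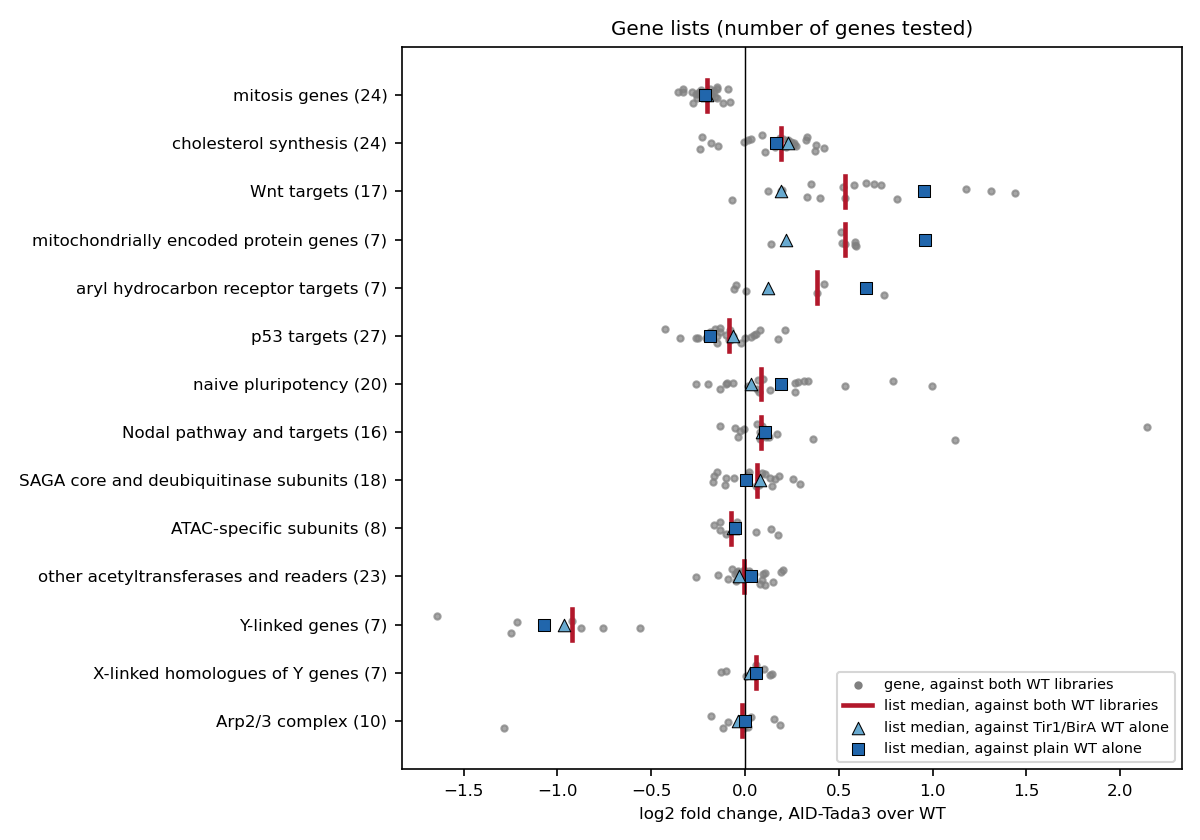
Log2 difference of AID-Tada3 over WT for the tested genes of 14 lists (grey points), with the list median against both WT lines (red bar), the Tir1/BirA line alone (triangle) and the plain line alone (square). The 3 medians are -0.20, -0.20 and -0.21 for mitosis genes and 0.53, 0.19 and 0.96 for Wnt targets.

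The amount of newly made RNA was measured against the Drosophila spike-in. The mouse library size per spike-in library size was 6.43 and 7.20 in AID-Tada3 clones, against 8.13 in the plain and 7.10 in the Tir1/BirA line. Clone 2 was above the Tir1/BirA line, so the groups overlapped. The means were 6.82 ± 0.545 in AID-Tada3 and 7.61 ± 0.728 in WT (SD, n = 2 each), so AID-Tada3 cells had 89.6% of the WT value. The exact two-sided permutation test gave p = 0.667, and the smallest p that 2 against 2 libraries allow is 0.333. Scaled by the spike-in, the median difference over all genes was -0.16, and edgeR called 26 genes higher and 224 lower (1.66%). Without the plain WT line these counts were 4 higher and 18 lower. In the spike-in fit the prior degrees of freedom were infinite for 90.67% of genes, so its p-values rest on a spread shared across genes.

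Long genes passed the unadjusted threshold more often than short ones. At p under 0.05 in edgeR, 4.97% of 1873 genes under 5 kb differed, beside 6.23% of genes of 5 to 20 kb, 8.38% of 20 to 100 kb, 12.7% of 100 to 500 kb and 14.3% of 230 genes of at least 500 kb. Of those that differed, 165 were higher and 103 lower at 100 to 500 kb, and 22 higher and 11 lower at 500 kb or more. Over all genes 578 were higher and 630 lower. The median log2 difference was 0.02 in the shortest class and 0.04 in the longest. In the same order it was -0.01 and 0.10 against the Tir1/BirA line alone, and 0.06 and 0.05 against the plain line alone.

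The other lines show how far these differences are shared. In a fit of all 14 4sU libraries (15426 genes), each mutant was set against the WT lines of its own project, which are again a plain and a Tir1/BirA line. There 11 genes were called lower and 0 higher in AID-Tada3 cells (0.0713%). The change in AID-Tada3 cells differed from that in AID-Yeats2 cells in 221 genes (1.43%), in AID-Zzz3 cells in 161 (1.04%) and in Supt7l-/- cells in 3 (0.0194%). Yeats2 and Zzz3 are subunits of ATAC and Supt7l is a core subunit of SAGA. A gene not called here is not shown to change alike in both lines.

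Arpc4 differed from all 3. On the scale of that fit it had 41.6 and 40.8 CPM in AID-Yeats2 and 40.5 and 37.7 CPM in Supt7l-/- clones, against 46.5 and 43.5 CPM in their WT lines. In AID-Zzz3 clones it had 36.3 and 36.7 CPM, against 39.4 and 44.7 CPM in their WT lines. The AID-Tada3 change minus that in the other line was -1.16 for AID-Yeats2 (edgeR adjusted p = 0.000879), -1.08 for Supt7l-/- (edgeR adjusted p = 0.02) and -1.08 for AID-Zzz3 cells (edgeR adjusted p = 0.00166).

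Etv1 had 175 and 175 CPM in AID-Yeats2 and 133 and 118 CPM in Supt7l-/- clones, against 160 and 150 CPM in their WT lines. In AID-Zzz3 clones it had 242 and 210 CPM, against 202 and 228 CPM in their WT lines. Its AID-Tada3 change minus that in the other line was -0.90 for AID-Yeats2 (edgeR adjusted p = 0.00247) and -0.80 for AID-Zzz3 (edgeR adjusted p = 0.00531). For Supt7l-/-, in which both clones were also below their WT lines, it was -0.42 and not called (edgeR adjusted p = 0.316). Rpl39l had 62.2 and 62.6 CPM in AID-Yeats2 and 44.3 and 38.5 CPM in Supt7l-/- clones, against 47.1 and 50.1 CPM in their WT lines. In AID-Zzz3 clones it had 49.3 and 42.4 CPM, against 46.8 and 39.9 CPM in their WT lines. Its differences were -1.26 from AID-Yeats2 (edgeR adjusted p = 0.000879), -0.98 from AID-Zzz3 (edgeR adjusted p = 0.00531) and -0.67 from Supt7l-/- (edgeR adjusted p = 0.163).

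Actn2 and Cyp7b1 fell in other lines as well. Actn2 had 2.87 and 2.82 CPM in AID-Yeats2 and 9.40 and 11.2 CPM in Supt7l-/- clones, against 16.4 and 24.4 CPM in their WT lines. In AID-Zzz3 clones it had 3.61 and 2.92 CPM, against 16.4 and 21.9 CPM in their WT lines. Its log2 difference in that fit was -1.32 in AID-Tada3 (edgeR adjusted p = 0.0375), -2.83 in AID-Yeats2 and -2.57 in AID-Zzz3 cells, and the AID-Tada3 change minus the AID-Yeats2 change was 1.51 (edgeR adjusted p = 0.0447). Cyp7b1 had 67.3 and 63.3 CPM in Supt7l-/- clones, against 117 and 117 CPM in their WT lines. Its log2 difference was -0.97 in AID-Tada3 (edgeR adjusted p = 0.0212) and -0.84 in Supt7l-/- cells (edgeR adjusted p = 0.0218), and those changes were not called different (-0.13, SE 0.204, edgeR adjusted p = 0.866).

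Genes called in the other mutants shifted little in AID-Tada3 cells. The 268 genes called lower in AID-Yeats2 cells (1.74% of genes) had a median of -0.10 in AID-Tada3 cells, and 76.5% were lower by sign, beside 51.0% of all genes. The 258 called lower in AID-Zzz3 cells (1.67%) had a median of -0.12, with 80.2% lower by sign, and the 63 called lower in Supt7l-/- cells (0.408%) had a median of -0.12, with 71.4%. Against the plain WT line alone the 3 shares were 59.0%, 64.7% and 54.0%, beside 49.9% of all genes. They were 85.8%, 85.3% and 79.4% against the Tir1/BirA line alone, beside 49.3% of all genes. Genes called higher were 299 in AID-Yeats2 (1.94%), 325 in AID-Zzz3 (2.11%) and 34 in Supt7l-/- cells (0.22%), of which 293, 318 and 30 were among the 15099 genes of the main comparison. Of these, 34.1% from AID-Yeats2, 45.3% from AID-Zzz3 and 83.3% from Supt7l-/- cells were higher by sign in AID-Tada3 cells, beside 49.0% of all genes. The AID-Yeats2 and AID-Zzz3 lower lists thus leaned lower against either WT line, by an amount that depended on the line. The Supt7l-/- lower list was near the share of all genes against the plain line. In AID-Tada3 cells the higher lists had medians of -0.11 (AID-Yeats2), -0.05 (AID-Zzz3) and 0.19 (Supt7l-/-). The AID-Yeats2 higher list thus leaned lower as well. AID-Tada3 has its own WT libraries in these sets, and no test was made of the shares.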

How the data were processed

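The authors deposited raw counts of reads for mouse Ensembl genes and for spike-in genes in each of 3 sequencing projects. The deposited tables also hold the authors' log2 fold change, p-value and adjusted p-value of AID-Tada3 against WT, and the median transcript length of each gene. The submitters' processing notes name STAR 2.5.3a, HTSeq 0.6.1p1, DESeq2 1.16.1, Bowtie2 2.2.8, cutadapt 1.10 and bcl2fastq 2.17.1.14, with the build mm10, and the kit was stranded per the labels' protocols. The strand setting of the counting is not given in the sources used here.

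The 4 libraries held 15183636 and 15994518 mouse counts (AID-Tada3) and 15852542 and 14780983 (WT), with 2335495 and 2290544 against 1956213 and 2071539 spike-in counts. Low genes were removed by filterByExpr set to 10 counts, TMM factors of mouse genes scaled the libraries, and groups were tested with the robust quasi-likelihood test of edgeR 4.0.16 (limma 3.58.1, R 4.3.3) with Benjamini-Hochberg adjustment at 0.05. Adjusted p-values of genes are from that test unless another tool is named. The standard error of a log2 difference is its size over the root of the F statistic. DESeq2 1.42.0 was an alternative, beside spike-in scaling (TMM on Drosophila genes with at least 10 counts in every library), other filters, a fit of all 14 4sU libraries, and leaving out each library. Changes were compared between mutants in the 14-library fit by contrasts of each mutant against its own WT. Python 3.11.15 and matplotlib 3.10.9 were used for sequences and figures. Gene IDs matched the GENCODE M21 annotation for 15091 genes, from which strands were taken.

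On simulated counts with 4 libraries and 14823 genes, the test recovered 41.8% of genes changed by 1.5-fold, 58% of those changed by 2-fold and 85.9% of those changed by 3-fold, with 22 unchanged genes called. For differences between mutants in 14 libraries, it recovered 5.63% to 9.52% at 1.5-fold, 33.3% to 45.8% at 2-fold and 54.3% to 60% at 3-fold. The simulation gave both WT lines the same expected level, so its recovery need not hold for these data.

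Named genes were Tada3 and the called genes, the 6 largest rises and falls among protein-coding genes with a mean of at least 1 CPM that were called with spike-in scaling with both clones beyond both WT lines, the shared module, genes within 60 kb of Tada3, Y-linked genes with their X-linked homologues, and the member of each other list with the smallest p. Other genes were named after their values were seen, and single members of the cholesterol synthesis list are not reported here. Members, lists and this rule were chosen with earlier results of these data known. A list is described by its counts and median.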

Additional observations from a re-analysis of the deposited data

Results flagged for a closer look

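For 10 genes named by rule, the change in AID-Tada3 cells differed from that in another mutant, each against its own WT lines, in edgeR's test of the difference over the 14 4sU libraries (adjusted p under 0.05). Beside AID-Yeats2, the AID-Tada3 change minus the other change was -1.40 for Tada3 (edgeR adjusted p = 0.0155), -1.16 for Arpc4, -1.10 for Ttll3 (edgeR adjusted p = 0.0153), -0.90 for Etv1 and -1.26 for Rpl39l. Beside AID-Zzz3 it was -1.25 for Tada3 (edgeR adjusted p = 0.0352), -1.08 for Arpc4, -0.80 for Etv1 and -0.98 for Rpl39l. Beside Supt7l-/- it was -1.08 for Arpc4, the single gene lower there. Of genes named after their values were seen, Actn2, Platr16 and Patj also differed. Platr16 differed by -0.77 from AID-Yeats2 (edgeR adjusted p = 0.0111) and by -0.69 from AID-Zzz3 (edgeR adjusted p = 0.0228), and Patj differed by 0.74 from AID-Yeats2 (edgeR adjusted p = 0.0467).

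Ei24, a p53-induced gene, differed by -0.91 from AID-Yeats2 (edgeR adjusted p = 0.0109) and by -0.75 from AID-Zzz3 (edgeR adjusted p = 0.0352). It had 68.3 and 75.1 CPM in AID-Tada3 clones, against 89.2 and 82.5 CPM in WT lines, and 118 and 127 CPM in AID-Yeats2 clones, against 76.2 and 80.1 CPM in theirs. Nsg2, a neuronal vesicle protein gene, differed by -2.30 from AID-Yeats2 (edgeR adjusted p = 0.0405), with under 1 CPM in both AID-Tada3 clones. Map2, a neuronal microtubule protein gene, differed by 1.05 from AID-Yeats2 (edgeR adjusted p = 0.0356). Cdx2, a caudal-type transcription factor, differed by 2.165 from AID-Zzz3 (edgeR adjusted p = 0.0433), with 6.83 and 6.64 CPM in AID-Tada3 clones, against 1.76 and 3.70 CPM in WT lines, and 2.52 and 1.54 CPM in AID-Zzz3 clones, against 4.24 and 2.83 CPM in theirs. Meaf6, a subunit of MOZ and NuA4 acetyltransferase complexes, differed by 0.65 from AID-Zzz3 (edgeR adjusted p = 0.0398).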

How the results depend on the processing

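The AID-Tada3 counts, 0 genes higher and 5 lower, were 26 and 224 with spike-in scaling, 168 and 208 with no filter, 8 and 24 with DESeq2, 0 and 11 in the 14-library fit, 0 and 2 without robust estimation and 4 and 18 with spike-in scaling without the plain WT line, the last pair chosen after seeing the data. Leaving out each library gave 0 to 1040 higher and 0 to 1000 lower, with the lone library assumed to vary like the other group. For AID-Tada3 minus AID-Yeats2 (55 higher, 166 lower), spike-in scaling gave 311 and 87, no filter 138 higher, and leaving out a library 14 to 403 and 52 to 558. For AID-Tada3 minus Supt7l-/- (2 higher, 1 lower), spike-in scaling gave 206 and 21, no filter 46 and 20, DESeq2 43 and 19, and leaving out a library 0 to 280 and 0 to 209. For AID-Tada3 minus AID-Zzz3 (32 higher, 129 lower), spike-in scaling gave 81 higher, no filter 80 and 208, DESeq2 59 higher, and leaving out a library 8 to 276 and 55 to 450. Differences near 0 that changed sign, none of them called, were Kat2a (-0.025), Tada2a (-0.087), Zfx (-0.024), Kdm6a (-0.014), Ddx3x (-0.047), Uba1 (-0.10) and Usp9x (-0.16) with spike-in scaling, and Tada2a (-0.031), Kdm6a (-0.0033), Ddx3x (-0.10), Usp9x (-0.031) and Kat14 (-0.032) when the plain WT line was left out as well. Leaving out each library gave -0.010 to 0.27 for Kat2a, -0.70 to 0.12 for Gm15492, -0.15 to 0.12 for Ogg1, -0.13 to 0.13 for Brpf1, -0.049 to 0.28 for Ddx3x and -0.10 to 0.11 for Usp9x. The causes were not tested. The spike-in ratio stayed below 0 on the log2 scale in every setting run. No paired analysis was possible because the clone numbers have no counterpart among the WT lines in the labels.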

Other observations

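Chromosomes other than the Y and the mitochondrial genome were alike. Over chromosomes 1 to 19 and the X, the median log2 difference lay between -0.02 (chromosome 17) and 0.02 (chromosome 3), and the share of genes with p under 0.05 in edgeR ran from 6.44% on chromosome 17 to 10.3% on chromosome 12. The 10 tested genes of the Y chromosome had a median of -0.82, with 5 of them at p under 0.05. Antisense RNAs had a median of 0.06 over 528 genes and long intergenic RNAs -0.03 over 747, beside -0.0060 over 13022 protein-coding genes.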
